A study of Homo sapiens with 12 samples.

Results

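The 32 genes described here encode enzymes of cholesterol synthesis and proteins that sense, move or dispose of sterols. They were chosen by function, with earlier results of these data known. They were taken by gene name from the deposited normalized table, which lists 26231 genes. All 32 had a row, and 31 passed the filter on low counts, beside 11968 genes tested in all. Per the labels, RNA came from the ALDH-positive fraction of 697 (EU3) cells, an established human B-cell precursor leukaemia line. ALDH-positive cells are rich in aldehyde dehydrogenase and light up in a cell sorter with its fluorescent substrate. Treated SH2 cells carried a doxycycline-inducible shRNA against IGF2BP1, an RNA-binding protein, received doxycycline and were then sorted for the green reporter that the drug switches on (sets 1 to 4, n = 4). Untreated SH2 cells were the same cells without doxycycline (sets 1 to 4, n = 4). Treated control cells received doxycycline (sets 2 and 4, n = 2), and untreated control cells did not (sets 2 and 4, n = 2). The protocol mentions a scrambled shRNA, but the labels of the control libraries do not say whether these cells carried it. Each set had its own sort of ALDH-positive cells and its own doxycycline treatment. In SH2 cells doxycycline and the sort for the reporter came together and cannot be told apart.

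Cells build cholesterol from acetyl-CoA by the mevalonate pathway, which also supplies isoprene units for lipid anchors on proteins, and then by a sterol branch that starts at squalene and closes the rings of lanosterol. When membranes are short of sterol, SCAP carries the SREBP factors to the Golgi, where they are cut and released to switch on most genes of the pathway; INSIG proteins hold the complex back when sterol is plentiful. The LXR receptors answer to excess sterol and switch on export genes and MYLIP, an E3 ligase that marks lipoprotein receptors for degradation.

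Between 2210291 and 3370952 reads per library were assigned to genes. IGF2BP1, the target of the shRNA, ranged from 6.28 to 25.0 CPM (counts scaled to library size) in treated SH2, from 21.7 to 39.2 CPM in untreated SH2, from 0.382 to 0.961 CPM in treated control and from 0 to 1.42 CPM in untreated control libraries. Its log2 fold change between treated and untreated SH2 cells was -0.99 ± 0.43 (SE), lower in 4 of 4 sets, with an adjusted p of 0.983 in edgeR's quasi-likelihood test. The SH2 and control cells also differed in immunoglobulin light chain: kappa made up at most 0.154% of constant-region light chain counts in SH2 libraries and 99.7% to 100% in control libraries. In every comparison of SH2 with control cells, the shRNA construct therefore cannot be told apart from other differences between these cell stocks. Whether the control cells are the same line as the SH2 cells was not tested. The 10 B-cell precursor markers all had counts, and their summed level was 1200 to 2860 CPM in treated SH2, 1360 to 2720 in untreated SH2, 2620 to 3630 in treated control and 2800 to 3710 in untreated control libraries. The 5 T-cell markers summed to 23.8 to 105 CPM in SH2 libraries, and in control libraries to 595 CPM (treated) and 573 CPM (untreated) in set 2 and 15.3 and 51.3 CPM in set 4. The part of these markers in the results was not tested. Summed myeloid markers stayed at or under 9.49 CPM, stromal markers at or under 18.1 CPM, and the erythroid gene HBB at 0 or 0.297 CPM.

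A short motif known as the sterol regulatory element is where SREBP factors bind. Its core, CACNCCAC on either strand, was searched in RefSeq promoters (250 bases before to 50 after each start, build GRCh38.p14), where 29 of the 32 genes had an entry. It was found in 5 of their 40 promoters (12.5%; SC5D has it at both of its listed starts), against 2060 of all 35116 promoters (5.87%). These stretches are shown because they belong to the only 4 of the genes with a match, among them 2 genes of the sensor itself, INSIG1 and SREBF2. Each is printed 5′ to 3′ on the strand that carries the motif, which is in capitals:
IDI1: cagcgccagtcCACGCCACatcgcccggcc
INSIG1: tgacgtgcgcaCACGCCACcgccggcccgc
SC5D: ccgccgctccgCACGCCACtgctctgcaaa
SREBF2: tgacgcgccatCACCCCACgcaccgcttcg
The stretches lie at chr10:1048983-1049012 for IDI1, chr7:155297659-155297688 for INSIG1, chr11:121292773-121292802 for SC5D and chr22:41832962-41832991 for SREBF2. The motif lies on the strand opposite to the gene for IDI1, INSIG1 and SC5D, and on the gene's own strand for SREBF2. In SREBF2 it also matches a longer form, TCACNCCAC, which contains the core and is present in 396 of all promoters (1.13%). A CCAAT box, the letters CCAAT on either strand, which NF-Y binds beside SREBP at many sterol genes, was in 24 of the 40 promoters (60%) and in 12155 of all (34.6%). A match describes these letters and is not evidence of binding.

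**Figure D1:**
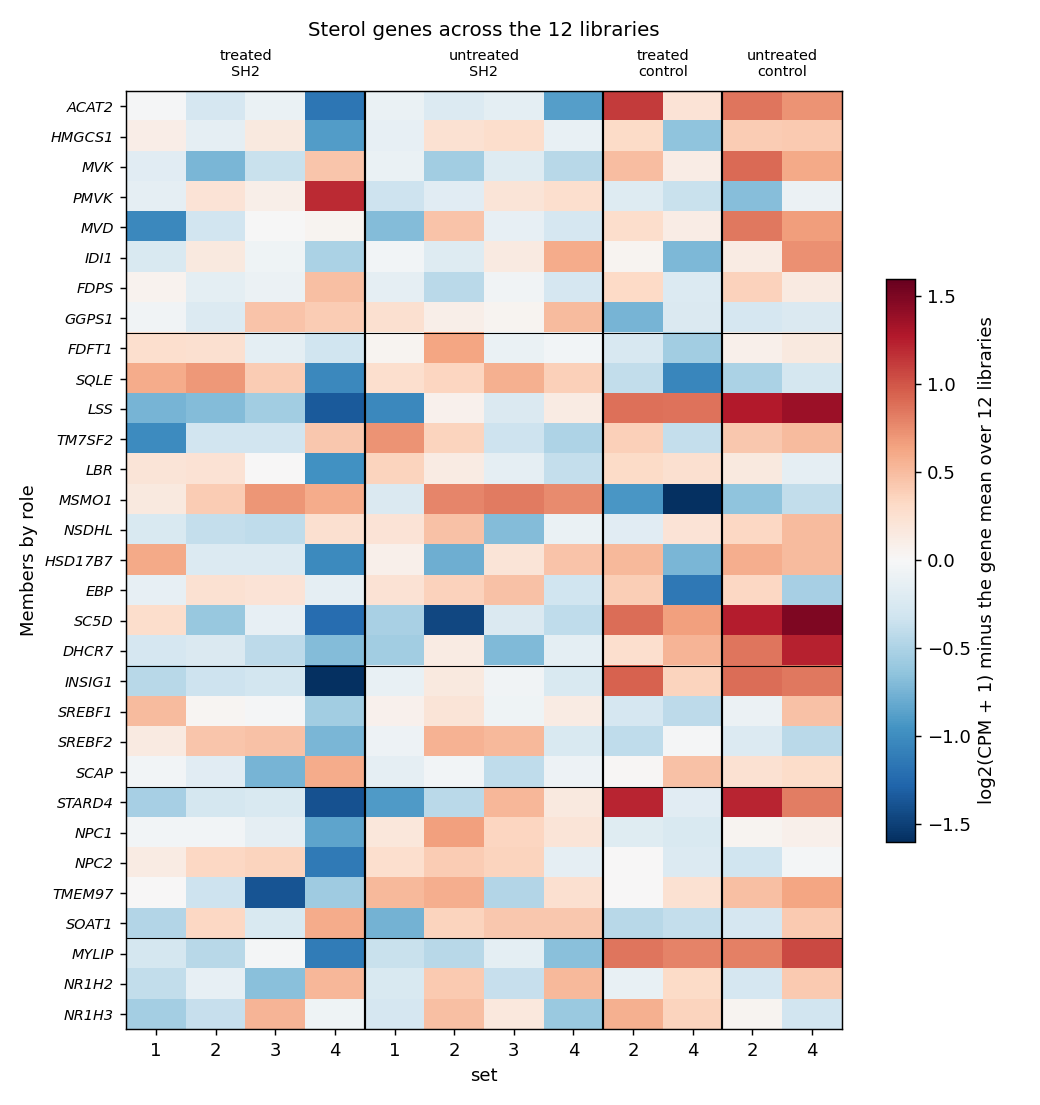
Level of each of the 31 tested genes (rows, by role) in each of the 12 libraries (columns, by group and set), as log2(CPM + 1) minus that gene's mean over all libraries; red is above and blue below that mean. MSMO1 is blue in all 4 control libraries and LSS is red in them, and the treated SH2 column of set 4 is the bluest, with a median of -0.56.

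Genes of several steps stood apart between SH2 and control cells without doxycycline. SC5D, DHCR7, LSS, MVK and MYLIP were lower in untreated SH2 than in untreated control cells, by 2.13-fold to 4.29-fold, and no sterol gene was called higher. The 5 genes called make up 16.1% of the 31, against 7.84% of all genes tested; 4.9% of all genes were called lower and 2.94% higher. The median log2 fold change of the 31 was -0.32, beside 0.03 for all genes, with 18 negative and 13 positive values. Groups did not overlap for 13 genes that were lower in SH2 cells (41.9%; 17.4% of all genes) and for 4 that were higher (12.9%; 15.5% of all genes). Fewer cells of one kind and less RNA per cell cannot be told apart in these bulk libraries.

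Among the mevalonate enzymes, MVK (chr12:109573255-109598117), which phosphorylates mevalonate, had 73.4, 53.4, 68.3 and 57.6 CPM in untreated SH2 cells of sets 1 to 4, and 149 and 121 CPM in untreated control cells of sets 2 and 4. Every untreated SH2 library was below both control libraries. The mean was 63.2 ± 9.26 CPM in untreated SH2 and 135 ± 20 CPM in untreated control cells (SD, n = 4 and 2). Its log2 fold change was -1.09 ± 0.31 (SE), with an adjusted p of 0.0425. This call ended in 13 of 22 alternative settings, with adjusted p between 0.0501 and 0.34, among them each fit without 1 untreated library. ACAT2, the thiolase that joins the first acetyl-CoA units, came next with -1.10 ± 0.35 and an adjusted p of 0.0691 (0.00201 once the set was a block). Of its exon bases 52.3% overlap another gene, including TCP1 on the opposite strand at its end, and the strand setting of the counting is not stated. Exons of an opposite-strand gene also lie at the ends of LSS (AP001468.1), TMEM97 (IFT20), HMGCS1, FDPS and SREBF1. Exon bases overlapping another gene were 7.88% for LSS and 11.9% for TMEM97. The remaining mevalonate enzymes HMGCS1, PMVK, MVD, IDI1, FDPS and GGPS1 were not called, with log2 fold changes of -0.86 (MVD) to 0.50 (GGPS1).

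In the sterol branch, LSS (chr21:46188141-46228824), which closes the ring system of lanosterol, had 9.43, 21.3, 17.2 and 22.3 CPM in untreated SH2 cells and 50.3 and 53.9 CPM in untreated control cells. SC5D (chr11:121292453-121308694), a sterol desaturase of the late pathway, had 7.79, 3.56, 9.72 and 8.45 CPM in untreated SH2 cells and 28.9 and 34.3 CPM in untreated control cells. DHCR7 (chr11:71428193-71452868), the reductase of a final step to cholesterol, had 33.6, 54.9, 30.4 and 44.7 CPM in untreated SH2 cells and 91.1 and 119 CPM in untreated control cells. For all 3 enzymes the groups did not overlap. The log2 fold changes were -1.56 ± 0.34 for LSS (adjusted p = 0.0108), -2.10 ± 0.44 for SC5D (adjusted p = 0.00895) and -1.36 ± 0.28 for DHCR7 (adjusted p = 0.00825). MSMO1 (chr4:165327623-165343160), a methylsterol oxidase of the steps after lanosterol, ran the other way. It had 43.0, 88.4, 91.0 and 86.9 CPM in untreated SH2 cells and 32.3 and 38.3 CPM in untreated control cells. Its log2 fold change of 1.13 ± 0.38 did not pass (adjusted p = 0.0934), but reached 1.21 (adjusted p = 0.0281) once the set was a block and 1.33 (adjusted p = 0.036) when set 1 of untreated SH2 cells was left out. SQLE, the squalene epoxidase, was at 46.3 to 57.0 CPM in untreated SH2 cells and at 26.6 and 31.1 CPM in untreated control cells, without passing. FDFT1, TM7SF2, LBR, NSDHL, HSD17B7 and EBP had log2 fold changes of -0.51 (HSD17B7) to 0.26 (EBP), none called.

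Of the genes for sterol disposal, MYLIP (chr6:16129125-16148248) had 24.6, 23.1, 28.5 and 19.6 CPM in untreated SH2 cells and 56.5 and 67.2 CPM in untreated control cells. The groups did not overlap, and the log2 fold change was -1.37 ± 0.30 (SE, adjusted p = 0.0118). The LXR receptors NR1H2 and NR1H3 gave 0.01 ± 0.41 and 0.15 ± 0.46. With n = 2 control libraries the calls leaned on each of them: leaving out untreated control set 2 left 1 gene called, DHCR7, and leaving out set 4 left none. In the fit that left out set 4, adjusted p was 0.0849 for LSS, 0.0766 for SC5D, 0.116 for DHCR7, 0.111 for MVK and 0.119 for MYLIP; without that of set 2, which had the high T-cell markers, it was 0.0782 for LSS, 0.0512 for SC5D, 0.34 for MVK and 0.0643 for MYLIP.

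**Figure D2:**
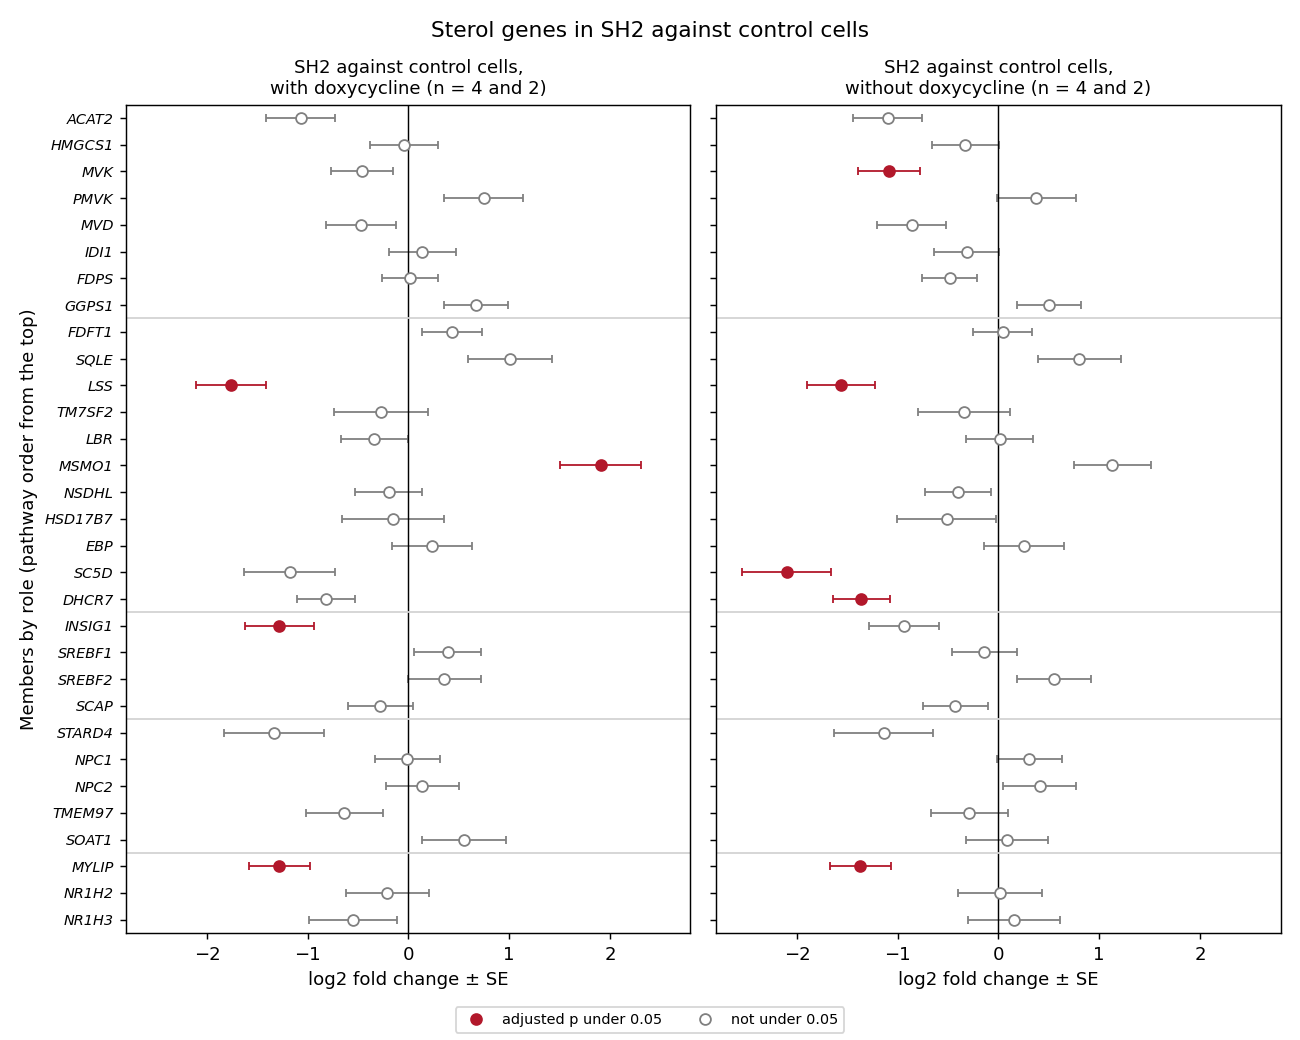
Log2 fold change of SH2 against control cells for 31 sterol genes, with doxycycline (left) and without (right); bars are the standard error from edgeR, and filled points passed an adjusted p of 0.05. LSS and MYLIP are filled on the negative side in both panels, and MSMO1 lies farthest to the positive side in both.

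With doxycycline in both cell stocks, LSS, INSIG1 and MYLIP were lower and MSMO1 was higher in treated SH2 than in treated control cells. These 4 genes are 12.9% of the 31, against 11.1% of all genes tested; 6.48% of all genes were called lower and 4.6% higher. The median log2 fold change of the 31 was -0.20, beside 0.04 for all genes, and it was 0.01 without the treated control library of set 2 and -0.35 without that of set 4. Groups did not overlap for 9 genes lower in SH2 cells (29%; 16.6% of all genes) and for 3 higher (9.68%; 15.4% of all genes). LSS and MYLIP were called in both comparisons of SH2 with control cells, which share no library but were fitted with a shared estimate of the spread.

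LSS had 11.7, 12.2, 13.5 and 7.41 CPM in treated SH2 cells of sets 1 to 4 and 38.1 and 37.8 CPM in treated control cells of sets 2 and 4. MSMO1 had 57.0, 68.0, 83.7 and 77.5 CPM in treated SH2 cells and 26.3 and 11.5 CPM in treated control cells. These enzymes of the same branch therefore lay on opposite sides, each with no overlap between groups. The log2 fold change of LSS was -1.76 ± 0.35 (adjusted p = 0.00461), a 3.38-fold lower level, and it passed in all 22 alternatives. That of MSMO1 was 1.91 ± 0.40 (adjusted p = 0.00679), a 3.77-fold higher level, and it was 1.43 (adjusted p = 0.111) when treated control set 4 was left out. SC5D had 14.2, 7.21, 10.5 and 4.38 CPM in treated SH2 cells and 22.4 and 18.7 CPM in treated control cells, and DHCR7 had 41.5, 42.5, 37.2 and 30.7 CPM in treated SH2 cells and 60.6 and 73.4 CPM in treated control cells. Neither passed here, at -1.18 ± 0.45 (adjusted p = 0.111; 0.0156 once the set was a block) for SC5D and -0.82 ± 0.29 (adjusted p = 0.0847) for DHCR7. MVK, at 69.5, 47.1, 61.3 and 108 CPM in treated SH2 cells and 111 and 86.0 CPM in treated control cells, overlapped. SQLE gave 1.01 ± 0.42 (adjusted p = 0.146) and passed when set 4 of treated SH2 cells was left out (1.28, adjusted p = 0.00897), where it had 18.2 CPM against 51.1 to 62.3 CPM in the other treated SH2 libraries. ACAT2 gave -1.07 ± 0.35 (adjusted p = 0.0633; 0.00259 once the set was a block).

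INSIG1 (chr7:155297776-155310235), the sterol-dependent brake on SREBP, had 72.9, 79.0, 81.0 and 29.3 CPM in treated SH2 cells and 192 and 127 CPM in treated control cells. Its groups did not overlap, and the log2 fold change was -1.28 ± 0.34 (adjusted p = 0.0268). The call ended when treated control set 2 was left out (-0.96, adjusted p = 0.247) and in a fit of the compared groups alone (adjusted p = 0.105). Without doxycycline INSIG1 had 91.4, 111, 95.2 and 83.9 CPM in SH2 cells and 186 and 179 CPM in control cells, -0.94 ± 0.34 (adjusted p = 0.126; 0.0281 once the set was a block). MYLIP, with 26.0, 23.2, 31 and 14.1 CPM in treated SH2 cells and 58.6 and 55.8 CPM in treated control cells, gave -1.28 ± 0.30 (adjusted p = 0.014). When treated control set 2 or 4 was left out its adjusted p was 0.0897 or 0.0748, and 0.0671 with the compared groups alone.

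The genes of the SREBP factors themselves were not called in any comparison. SREBF2 (chr22:41833079-41907308), whose factor drives chiefly cholesterol genes, had 437, 537, 545 and 237 CPM in treated SH2, 371, 581, 566 and 331 CPM in untreated SH2, 297 and 388 CPM in treated control and 338 and 291 CPM in untreated control cells. SREBF1 (chr17:17810399-17837002), whose factor drives chiefly fatty acid genes, had 36.4, 25.8, 25.0 and 16.8 CPM in treated SH2, 26.6, 29.4, 24 and 27.8 CPM in untreated SH2, 20.8 and 18.7 CPM in treated control and 23.7 and 35.4 CPM in untreated control cells. The groups overlapped for both genes between SH2 and control cells. With doxycycline, SH2 against control cells gave 0.36 ± 0.36 for SREBF2 and 0.39 ± 0.33 for SREBF1, and without it 0.56 ± 0.37 and -0.14 ± 0.32. SCAP, the escort of the SREBP factors, gave -0.28 ± 0.32 with and -0.43 ± 0.32 without doxycycline.

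**Figure D3:**
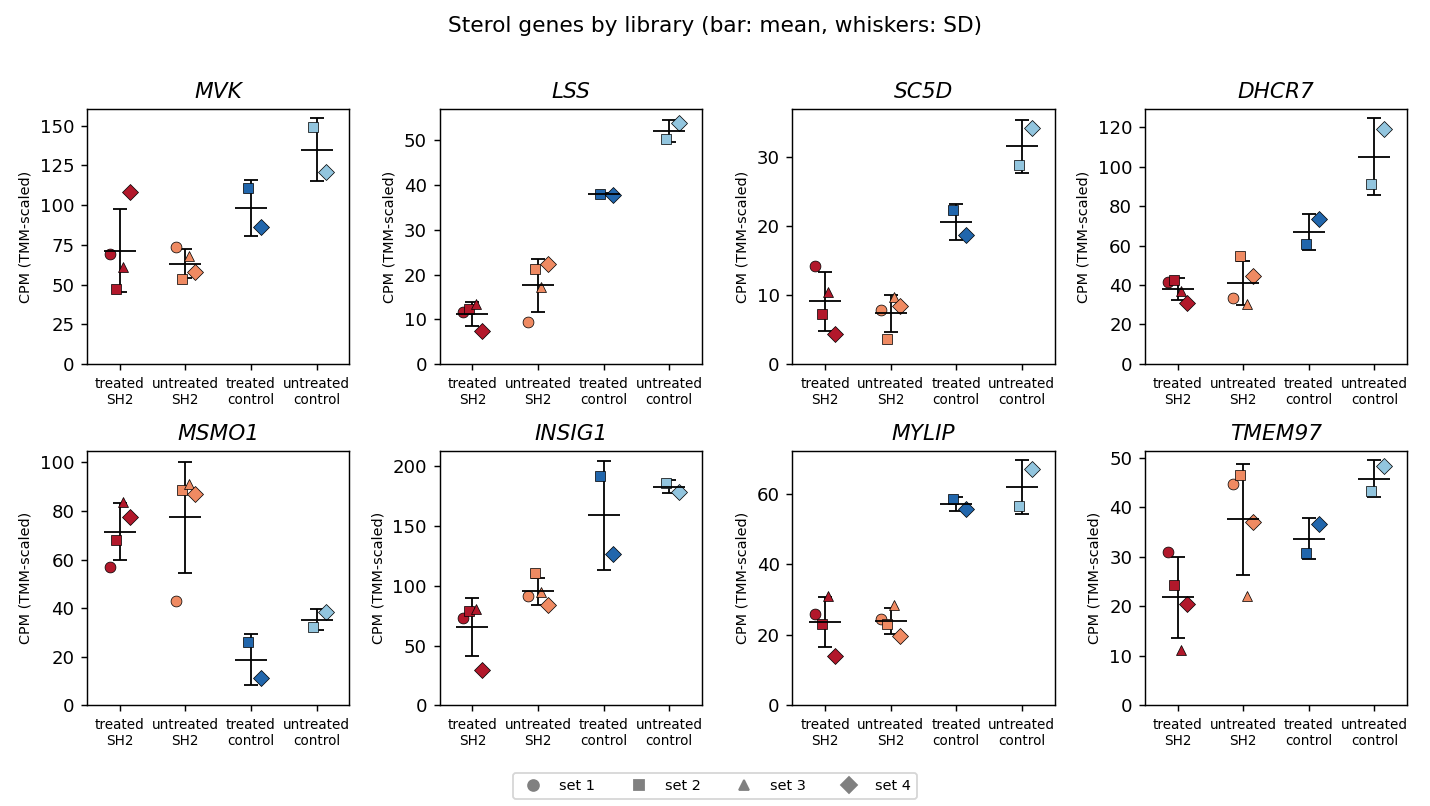
CPM of 8 sterol genes in each library, by group; symbols mark the set, the long bar the mean and the whiskers the SD (n = 4 for SH2, n = 2 for control groups). LSS, SC5D, DHCR7, INSIG1 and MYLIP are lower in every SH2 library than in every control library, and MSMO1 is higher. MVK and TMEM97 overlap between all SH2 and all control libraries, although the untreated groups of MVK do not overlap.

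Treated against untreated SH2 cells, the comparison built to show the effect of the shRNA against IGF2BP1, gave no call among the 31 genes in edgeR's quasi-likelihood test, where 0.0167% of all genes passed (2 of 11968). At an unadjusted p under 0.05 stood TMEM97, NPC1 and LSS, 3 of the 31 genes, and 4.88% of all genes, and DESeq2 called none of the 31. The median log2 fold change of the 31 was -0.11, beside 0.03 for all genes, with 26 negative and 5 positive values. By set the median was 0.08, -0.18, -0.11 and -0.44 in sets 1 to 4. Of the 31 genes, 3 were lower with doxycycline in 4 of 4 sets (9.68%; 10.1% of all genes), namely INSIG1, NPC1 and TMEM97, and none was higher in all sets (10.6% of all genes).

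TMEM97 (chr17:28319095-28328685), a sterol-responsive membrane protein that binds NPC1, had 31, 24.3, 11.2 and 20.5 CPM in treated SH2 cells of sets 1 to 4 and 44.7, 46.6, 22.0 and 37.1 CPM in untreated SH2 cells. It was lower in each set, although the groups overlapped, at -0.79 ± 0.32 (adjusted p = 0.983; 0.286 once the set was a block). NPC1 (chr18:23506184-23586898), which moves cholesterol out of lysosomes, had 20.9, 20.9, 19.4 and 11.5 CPM in treated SH2 cells and 24.6, 34.4, 27.5 and 25.0 CPM in untreated SH2 cells. The groups did not overlap, at -0.62 ± 0.26 (adjusted p = 0.983; 0.467 once the set was a block). INSIG1 also did not overlap between these groups, with the values given above, at -0.54 ± 0.29 (adjusted p = 0.983; 0.468 once the set was a block). These are 2 of 31 genes with no overlap on the lower side (6.45%; 2.03% of all genes), and no gene was free of overlap on the higher side (1.38% of all genes). LSS gave -0.66 ± 0.30 (adjusted p = 0.983), lower in 3 of 4 sets. TMEM97 had 30.8 and 36.7 CPM in treated control and 43.2 and 48.4 CPM in untreated control cells, and NPC1 had 18.6 and 18 CPM in treated control and 22.3 and 22.8 CPM in untreated control cells.

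Across genes with enough reads, treated SH2 set 4 differed more from the other treated SH2 libraries than those did from each other. Chi-square per degree of freedom, a measure of difference beyond sampling noise, was 39.95 to 54.46 against 9.29 to 29.81. That library also stood apart for the sterol genes. It was the lowest of the 4 treated SH2 libraries for 18 of the 31 genes (58.1%; 33.4% of all genes), among them HMGCS1, SQLE, LBR, INSIG1, STARD4, NPC2 and SREBF2. For 9 genes it was the highest (29%; 33.0% of all genes), among them MVK, PMVK, FDPS and SCAP. PMVK, the next kinase after MVK, had 27.2, 35.3, 32.3 and 70.4 CPM in treated SH2 cells. Their median deviation from each gene's mean was -0.56 in that library and -0.18 to -0.06 in the other 3 treated SH2 libraries, on the log2(CPM + 1) scale. In the untreated SH2 library of set 4 the median deviation was -0.10. Without both SH2 libraries of set 4, no sterol gene was called between treated and untreated SH2 cells either.

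**Figure D4:**
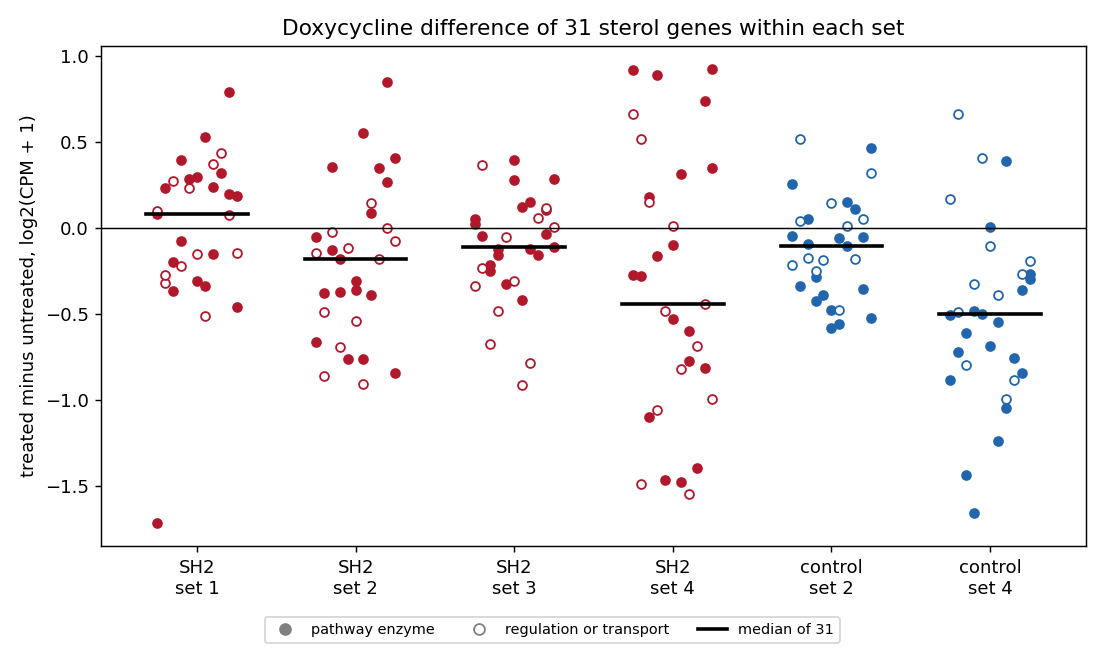
Difference between the treated and the untreated library of each set for 31 sterol genes, on the log2(CPM + 1) scale; filled points are enzymes, open points regulation and transport genes, and black bars the median. The medians of SH2 cells are 0.08, -0.18, -0.11 and -0.44 in sets 1 to 4, and those of control cells -0.11 in set 2 and -0.50 in set 4.

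In control cells, for which the labels give no sort for a reporter of their own, treated against untreated libraries gave no call either (0.0% of all genes; DESeq2 also called none). No sterol gene stood at an unadjusted p under 0.05, as did 82 of all genes (0.685%). The median of the 31 was -0.35, beside 0.01 for all genes, with 26 negative and 5 positive values. Both sets were lower with doxycycline for 17 genes (54.8%; 23.1% of all genes), 13 of them enzymes, and higher for LBR and NR1H3 (6.45%; 25.0% of all genes). The 4 smallest p-values belonged to MSMO1 at -0.90 ± 0.43, IDI1 at -0.76 ± 0.38, DHCR7 at -0.65 ± 0.34 and FDFT1 at -0.52 ± 0.34, each with an adjusted p of 1. Leaving out treated control set 2 moved MSMO1 to -1.62 and IDI1 to -1.20, leaving out treated control set 4 moved both to -0.42, and leaving out untreated control set 4 moved IDI1 to -0.42. IDI1 (chr10:1039152-1049170), which makes the reactive isoprene unit, had 52.9 and 30.9 CPM in treated control cells of sets 2 and 4 and 56.5 and 85.7 CPM in untreated control cells. FDFT1, the squalene synthase, had 182 and 147 CPM in treated control cells and 230 and 242 CPM in untreated control cells. In SH2 cells IDI1 had 43.2, 57.3, 48.8 and 35.7 CPM with doxycycline and 49.6, 44.5, 56.7 and 77.8 CPM without, and FDFT1 had 262, 259, 195 and 173 CPM with and 223, 337, 201 and 211 CPM without. The treated control library of set 4 was below that of set 2 for 23 of the 31 genes (74.2%; 48.4% of all genes).

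The response to doxycycline in SH2 cells minus that in control cells, the test of whether the 2 responses differed, gave no call among the 31 (0.0% of all genes; 116 of all genes, 0.969%, stood at an unadjusted p under 0.05, and none of the 31). The median was 0.17, beside 0.01 for all genes, with 20 positive and 11 negative values. It was 0.44 without the treated control library of set 2 and 0.00 without that of set 4. The smallest p-values belonged to MSMO1 at 0.78 ± 0.52, MVK at 0.63 ± 0.45, SC5D at 0.92 ± 0.65 and DHCR7 at 0.54 ± 0.41, each with an adjusted p of 1. Leaving out treated control set 2 moved MSMO1 to 1.5, and leaving out treated control set 4 moved it to 0.30. By role, the 8 mevalonate enzymes had a median of 0.38 (8 positive) and the 11 sterol branch enzymes 0.21 (8 positive). The 4 sensing genes had -0.02 (2 positive), the 5 transport genes -0.27 (1 positive) and the 3 LXR and MYLIP genes -0.23 (1 positive). Of all genes, 6084 of 11968 were positive. The sets with control libraries differed. Within set 2 the mevalonate median was 0.05 (4 of 8 negative) and the sterol branch median -0.06 (7 of 11 negative). Within set 4 they were 0.6 (1 of 8 negative) and 0.16 (4 of 11 negative). The median of the 31 was -0.06 within set 2 and 0.16 within set 4. This comparison shares its libraries with those of each cell stock.

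The other genes were measured without a call in any comparison. STARD4, which carries sterol through the cytosol, ranged from 4.38 to 10.9 CPM in treated SH2, 6.56 to 19.4 in untreated SH2, 11.5 to 32 in treated control and 23.9 to 31.8 in untreated control libraries. NPC2, the lysosomal partner of NPC1, ranged from 86.6 to 245 CPM in treated SH2 and from 152 to 191 CPM in control libraries. SOAT1, which esterifies cholesterol for storage, ranged from 14.3 to 37.7 CPM over all 12 libraries. HSD17B7 shares sequence with HSD17B7P2, which held 109 counts beside 501 for HSD17B7, so reads could have been split between them. CYP51A1, the lanosterol demethylase, had 1 count in 12 libraries and was not tested; 79.4% of its exon bases lie within exons of AC000120.2 on the same strand, and how reads there were assigned is not stated.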

How the data were processed

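Libraries were made with a QuantSeq 3′ kit, per the labels' protocols, so reads fall mainly at the transcript end. The authors deposited whole-read counts per gene for each of 12 libraries (64253 gene IDs and 5 summary lines, the latter kept out), made with FastQC, STAR and HTSeq on hg38 (GRCh38), per the submitters' processing notes; DESeq2 is named there too. Their versions and annotation, and the strand setting, were not given in the sources used here. Alignments that were not unique took 42.2% to 63.8% of reads per library. They also deposited normalized signal for 26231 genes, each column equal to the counts times a constant; 100% of its values came out whole (tolerance 0.01), and the count test on these reads called 2 genes between treated and untreated SH2 cells. It has 0 columns of other samples.

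The counts were fitted with edgeR 4.0.16 under R 4.3.3 (filterByExpr, minimum count 10; TMM; robust quasi-likelihood; all 12 libraries, 1 term per group). P-values were adjusted by Benjamini-Hochberg over the 11968 genes tested and called under 0.05; the spread between replicates (biological coefficient of variation) was 0.376. CPM use TMM-scaled library sizes, errors are SD or SE as stated, and differences by set use log2(CPM + 1). DESeq2 1.42.0 and limma 3.58.1 served as alternatives. The test was checked on simulated data. Positions and overlaps are from GENCODE v29 on GRCh38, and promoters from RefSeq. Overlap between groups, counts by set and medians are descriptions without a test.

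The genes and lists were chosen with earlier results of these data known. Values in every library are given for genes past the threshold in any comparison, the 4 smallest p-values in each, and INSIG1, SREBF1 and SREBF2; PMVK, SQLE and other genes given by range were added after their values were seen.

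Per the design text, each replicate had its own sort and treatment. All replicate pairs differed by more than sampling noise (chi-square per degree of freedom 9.29 to 54.5). Set numbers come from the titles. Deviations from group means correlated at 0.187 to 0.661 between same-set SH2 libraries and at -0.547 to 0.271 between sets. All 4 pairs were over 0.1, so the set was taken to pair the libraries in the differences by set and in the fits with the set as a block. The main fit did not use this pairing. Treated SH2 set 2 correlated more with untreated set 1 (0.271) than with its own set (0.187). The same-set value in control cells was 0.498. Of the related genes, 1 is not reported here.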

Additional observations from a re-analysis of the deposited data

Results flagged for a closer look

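Dixon's criterion was applied to 62 groups of 4 libraries (31 genes in treated and in untreated SH2 cells). In 5 of them a library lay far from the other 3, and chance flags about 1 in 20. The share over all genes is not given here, so these 5 are not a result about the sterol genes. In the treated SH2 library of set 4, INSIG1 was at 29.3 CPM against 72.9 to 81.0 CPM in the others, and NPC1 at 11.5 CPM against 19.4 to 20.9 CPM. In untreated SH2 cells, FDFT1 was at 337 CPM in set 2 against 201 to 223 CPM in the others. MSMO1 was at 43.0 CPM in set 1 against 86.9 to 91.0 CPM, and SOAT1 at 14.3 CPM in set 1 against 32 to 33.8 CPM.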

How the results depend on the processing

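Of 594 fold changes of named sterol genes under 22 alternatives, 540 kept their direction and side of the threshold, 32 lost the call, 22 gained it and 0 reversed. Most of the 594 belong to results without a call in the main fit, which had none to lose. All 32 losses fell on the 5 genes called without and the 4 called with doxycycline between SH2 and control cells. MVK alone lost its call in 13 of 22. No alternative called a sterol gene between treated and untreated cells of either stock or in the difference of these responses. Counts of all genes called were 2 for SH2 with doxycycline (47 without a filter on low counts, 14 with DESeq2, 0 with the compared groups alone, 1 without both SH2 libraries of set 4, 0 to 3 leaving out 1 library), 0 for control cells (3 without a filter) and 0 for the difference of responses (3 without a filter, 3 with DESeq2). SH2 against control cells gave 938 genes without doxycycline (1449 without a filter, 343 to 1202 leaving out 1 library) and 1326 with it (789 with the compared groups alone, 645 to 1462 leaving out 1 library). Sterol genes called were 5 without doxycycline (0 to 7 leaving out 1 library) and 4 with it (2 with the compared groups alone, 2 to 5 leaving out 1 library). The median of the sterol genes in the difference of responses, 0.17, ran from 0.00 to 0.44 leaving out 1 library; that of treated SH2 against treated control cells, -0.20, from -0.35 to 0.01, and was -0.14 without both SH2 libraries of set 4.

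With the set as a replicate block, 6 of 11968 genes were called for SH2 with doxycycline and 1 for the difference of responses. SH2 against control without doxycycline gave 1505 of 11968 genes and 8 of 31 sterol genes, adding ACAT2, INSIG1 and MSMO1. With doxycycline that comparison gave 2171 of 11968 genes. There ACAT2 and SC5D joined the sterol genes called, and the median of the sterol genes was -0.11. Reads recovered from the normalized table, fitted after seeing the data, equal the deposited counts (100%). That fit repeats the main one and is no separate check. Sets 2 and 4 alone, also chosen after seeing the data, gave 0 genes for SH2 with doxycycline (0 with the block). SH2 against control cells there gave 413 genes and 1 sterol gene without doxycycline (3 with the block), and 652 genes with it, median -0.11. The number of genes tested in sets 2 and 4 alone is not given, so these counts are not shares. The cause was not tested. Control groups held 2 libraries each, and a sterol gene without a call is not shown to be unchanged.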

Other observations

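Of 43 tested genes related to sterol biology (SREBP processing, prenyl branches, sterol transport, LXR partners and oxysterol makers), none was called between treated and untreated cells of either stock, with medians of 0.05 in SH2 and -0.02 in control cells. LPCAT3, a phospholipid-remodelling enzyme and LXR target, gave the smallest p in SH2 cells, 1.24 ± 0.54 (adjusted p = 0.983 in edgeR), with 20.1, 16.3, 6.92 and 70.7 CPM in treated and 13.1, 10.1, 9.07 and 16.0 CPM in untreated SH2 cells; set 4 held the one high library. In control cells VLDLR, a lipoprotein receptor, gave -1.24 ± 0.59 (adjusted p = 1 in edgeR), with 4.49 and 6.49 CPM in treated and 5.69 and 19.9 CPM in untreated control cells; the untreated library of set 4 was the one high library.

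RXRA, the partner of the LXR receptors, was higher in treated SH2 cells at 30.2, 30.4, 32.6 and 16.2 CPM, against 5.45 and 9.55 CPM in treated control cells, 1.87 ± 0.40 (adjusted p = 0.00811). SCARB1, a lipoprotein receptor that exchanges cholesterol, was lower at 37.3, 38.7, 33.6 and 27.3 CPM, against 59 and 77.6 CPM, -1.0 ± 0.30 (adjusted p = 0.0452). Of all genes tested, 11.1% were called in this comparison. Between untreated SH2 and untreated control cells neither passed in edgeR, at 0.96 ± 0.38 (adjusted p = 0.164) for RXRA and -0.48 ± 0.30 (adjusted p = 0.433) for SCARB1.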
